A study of Mus musculus with 7 samples.

Results

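In all, 9 genes of the T follicular helper network were examined: Bcl6, Ascl2, Maf, Tox, Tox2, Batf, Pou2af1, Irf4 and Prdm1, which encode transcription factors or a cofactor that promote or oppose the follicular helper state. They were picked by symbol from the 19589 gene symbols of the deposited expression table, and all 9 were found. The cells were CD4+ splenocytes of C57BL/6 mice, isolated by flow cytometry, with 1 library for each of 7 mice. The 4 mice of the WT group (WT1 to WT4) were wild type, and the 3 mice of the RT group (RT1 to RT3) had the genotype that the series writes as Tet2-/-G17VRHOA. Tet2 encodes an enzyme that oxidises methylated cytosine in DNA, and G17V is a change in the small GTPase RHOA that recurs in a lymphoma with follicular helper features. What drives expression of the mutant RHOA, which part of Tet2 is deleted and how old the mice were is not stated in the labels, and no group analysed here carried either lesion alone.

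T follicular helper cells are CD4+ T cells that enter B cell follicles and support germinal centres. Bcl6, a transcriptional repressor, is the defining factor of this fate, and Blimp-1, the repressor that Prdm1 encodes, opposes it: each represses the gene of the other. Ascl2, Maf, Tox, Tox2, Batf and Irf4 act with or ahead of Bcl6, while Pou2af1 is a coactivator of octamer-binding factors that is best known from B cells.

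The libraries fell into 2 sets by depth, and each set held both genotypes. The values rested on 18566233 to 21800352 reads in WT1, WT2 and RT1, called deep here, and on 105763 to 121659 reads in WT3, WT4, RT2 and RT3, called shallow. Values are RPKM, reads scaled to gene length and library total, so that for a gene of 2 kb each read added 0.0229 to 0.0269 RPKM in a deep library and 4.11 to 4.73 RPKM in a shallow one. Of the reads behind the values, 47.4% to 51.3% lay in genes in the deep set and 87.7% to 90.7% in the shallow set, so RPKM levels of the sets are not on the same footing and genotypes were compared with the set as a term. The mice of the deep libraries were female by Xist and Y-linked genes, as was RT2, and the other 3 were male. Tet2 read 6.32, 4.68, 2.86 and 2.79 RPKM in WT1 to WT4 and 5.03, 0.803 and 0 in RT1 to RT3. The library labelled RT1 therefore had Tet2 reads at the level of the deep wild types, and a whole-gene value cannot tell whether only a deleted stretch is missing, so this gene did not check the labels. In bulk samples, fewer cells of a type and less RNA per cell cannot be told apart.

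Most of the factors read higher in RT, and Irf4 did not do so throughout. All 9 had a positive log2 fold change over the 7 libraries. In 7 of them (Bcl6, Ascl2, Maf, Tox, Tox2, Batf and Prdm1) the RPKM of every RT library lay above that of every WT library. Of the 9605 tested genes, 4.47% showed this pattern. Within the deep libraries the one labelled RT1 was above WT1 and WT2 for 9 of 9, against 39.6% of genes. Within the shallow libraries RT2 and RT3 were above WT3 and WT4 for 7 of 9, against 19.4% of genes. The exceptions there were Pou2af1 and Irf4. The reads of the 9 genes together made up 1038, 585, 921 and 842 RPM (reads scaled to 1000000 recovered reads) in WT1 to WT4 and 2538, 1986 and 2420 RPM in RT1 to RT3. WT2 had the lowest summed level, and each of the 9 genes read lower in WT2 than in WT1. In RPM, Prdm1 lost its full separation, with RT2 at 31.4 and WT1 at 55.5.

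**Figure D1:**
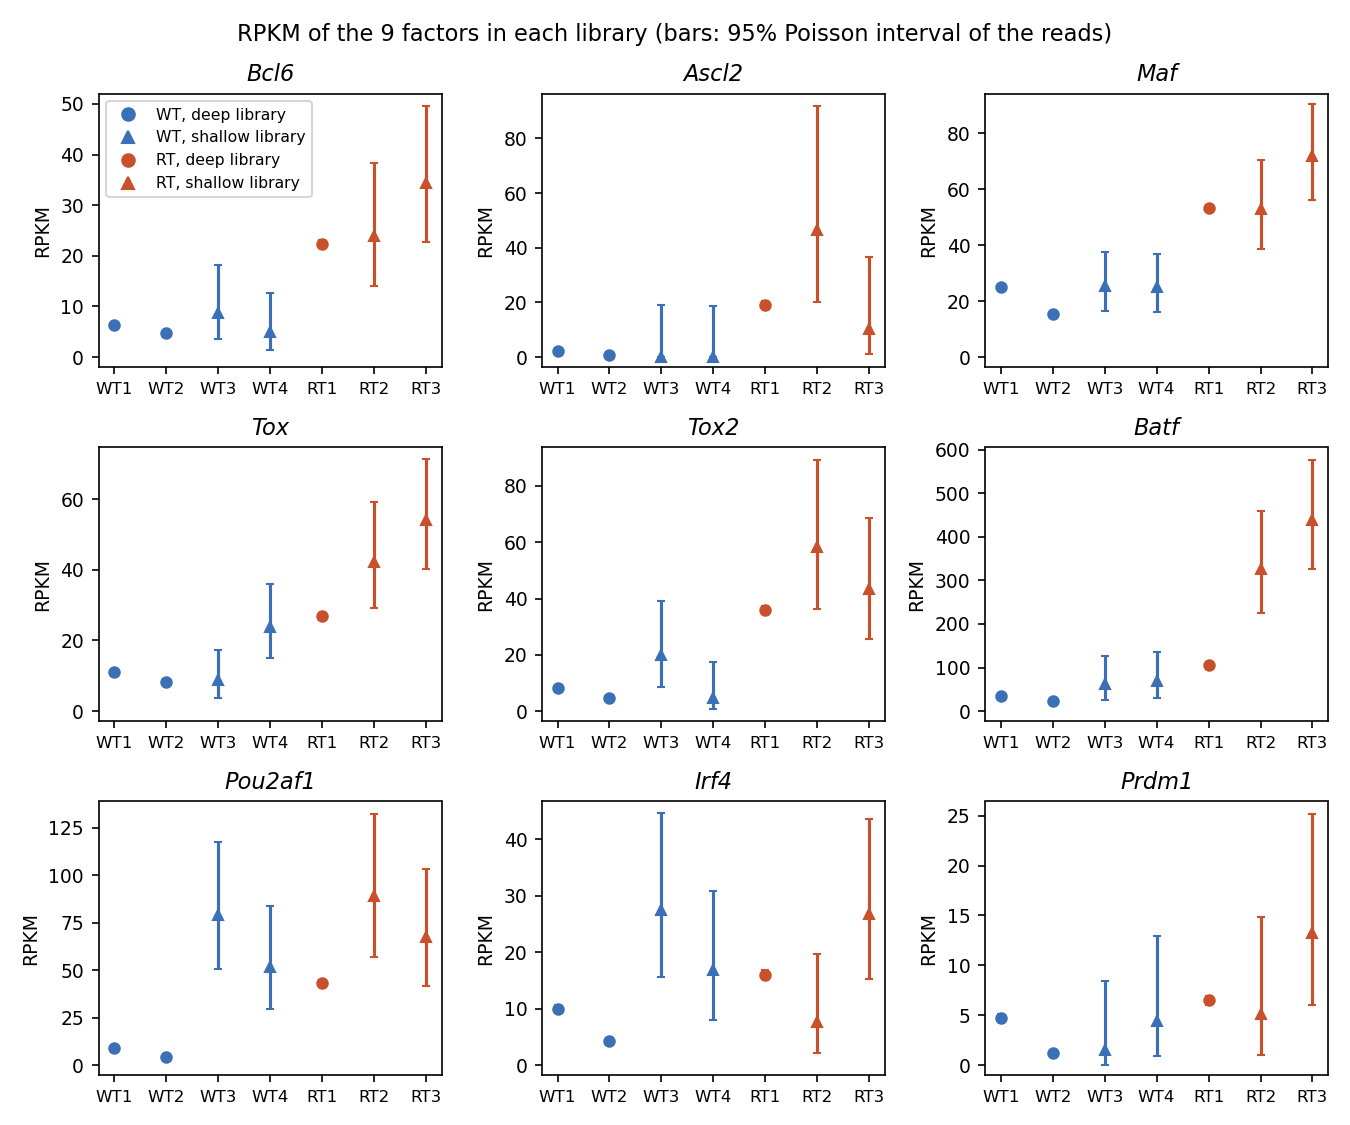
RPKM of each of the 9 factors (vertical axes, linear, a scale for each gene) in the 7 libraries (horizontal axes), with 95% Poisson intervals of the reads as bars, circles for deep and triangles for shallow libraries, blue for WT and orange for RT. RT points stand above all WT points for every gene except Pou2af1 and Irf4, and the intervals of the shallow libraries are wide, as for Ascl2 in RT3, where 10.1 RPKM rests on 2 reads.

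How many of these differences passed a test depended on the values tested. On log2(RPKM + 1), with genotype and library set as terms (limma, Benjamini-Hochberg adjustment over 9605 genes, threshold 0.05), 1 of the 9 rose in RT, Batf, and none fell. In that fit 0.219% of genes were called higher and 0.0521% lower. Before adjustment, 6 of the 9 were higher at a p under 0.05 and 0 were lower, against 7.0% of all genes higher at that level. On the whole reads recovered from the steps of the RPKM values, which weigh each library by its depth, 7 of the 9 rose and 0 fell (limma voom, 5820 genes, of which 10.2% were called higher and 8.69% lower). The 2 that did not pass there were Irf4 and Prdm1. The filter of 10 reads over the shallow libraries was met through RT for Ascl2 (10 reads in RT, 0 in WT) and for Prdm1 (12 and 4), so these 2 were tested because RT was high. Before adjustment 9 were higher at a p under 0.05 and 0 lower in the fit on reads, against 16.8% of all genes higher. In the shallow libraries alone, with 2 mice a group, limma voom called 5 higher (Bcl6, Maf, Tox, Tox2 and Batf) and none lower. Of all genes it called 3.75% higher and 5.45% lower. On RPKM of the same libraries only Batf was called (limma, adjusted p = 0.048), with 11 of 9378 genes higher and 75 lower. In the deep libraries alone 7 were called higher and none lower, against 4.69% and 2.3% of genes (limma voom), but RT has 1 library there and no spread of its own, so these calls compare that library with WT1 and WT2. The median log2 fold change of the 9 was 1.55 on RPKM and 1.94 on reads, against -0.03 for all genes in both fits. The calls on reads changed when the library labelled RT1, the only deep one of its group, was left out. Without RT1, limma voom called 0 of the 9 and 0% of all genes. At an unadjusted p under 0.05, 3 of the 9 were higher, against 2.9% of genes. The fit on the shallow libraries alone, with its 5 calls, also lacks RT1. The fit without RT1 differs from it in keeping WT1 and WT2, whose spread enters its errors. The fits also differ in how the spread was estimated. In the shallow fit it was pooled almost wholly over all genes, as its Bcl6 interval of 1.0 to 3.0 at an SE of 0.51 shows. Its p-values therefore do not measure the spread of a single gene between the 2 mice of a group. The log2 fold changes without RT1 were 2.0 ± 0.79 for Bcl6, 1.24 ± 0.68 for Maf, 1.64 ± 0.66 for Tox, 2.14 ± 1.17 for Tox2 and 2.43 ± 0.74 for Batf. These were close to those of all libraries but with wider errors than with RT1. Monocyte and macrophage markers (Lyz2, Csf1r, Adgre1, Cd68 and Fcgr3) were high in that library, at 2270 RPM against 752 and 499.9 RPM in WT1 and WT2. Among the shallow libraries WT3 had 1084 and WT4 1057 RPM, against 251 for RT2 and 344 for RT3, with Cd68 at 0 in both RT libraries, Fcgr3 at 0 in RT2 and Adgre1 at 0 in RT3, and their part in the differences was not tested. The fit on RPKM called 2 of the 9 without RT1 and 0 when any other library was left out.

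**Figure D2:**
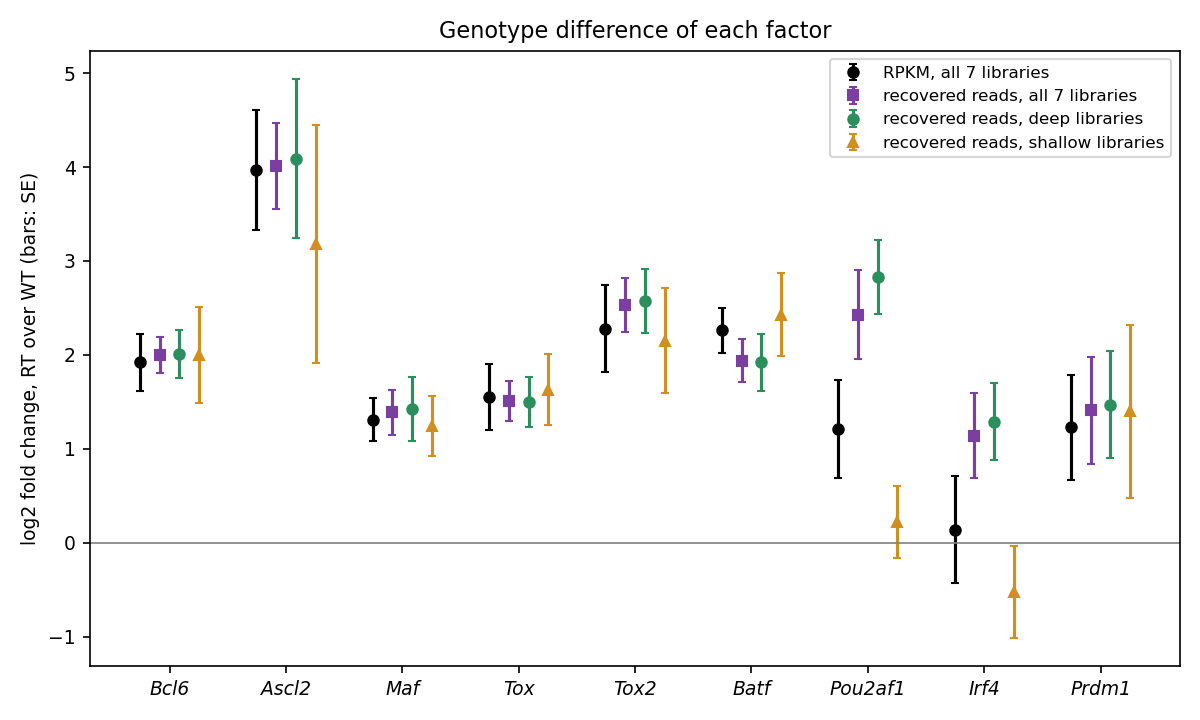
Log2 fold change of RT over WT (vertical axis; bars are standard errors) for each factor in 4 fits: log2(RPKM + 1) over all libraries in black, and recovered reads over all, the deep and the shallow libraries in purple, green and yellow. Bcl6, Maf, Tox, Tox2 and Batf sit between 1.24 and 2.57 in every fit, while Pou2af1 goes from 2.83 in the deep to 0.22 in the shallow libraries and Irf4 from 1.29 to -0.52.

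Bcl6 (ENSMUSG00000022508.5, mm10 chr16:23965052-23988852, minus strand) read 6.26, 4.84, 8.78 and 4.91 RPKM in WT1 to WT4 and 22.3, 24.0 and 34.4 in RT1 to RT3. Every RT value was above every WT value, in each set and across them. The means were 6.20 ± 1.84 in WT (SD, n = 4) and 26.9 ± 6.53 in RT (SD, n = 3), a ratio of 4.34. The counting error of single shallow libraries was large: 7 reads in WT3 gave a 95% Poisson interval of 3.53 to 18.1 RPKM and 17 reads in RT2 gave 14.0 to 38.4, so these 2 libraries alone overlapped. In RPM, RT stood at 3.93 times WT among deep and 4.13 times among shallow libraries. The log2 fold change was 1.92 ± 0.30 (SE) on RPKM, short of the threshold (limma, adjusted p = 0.0736). On reads it was 2.0 ± 0.19 (limma voom, adjusted p = 0.000597), and the shallow libraries alone gave 2.0 ± 0.51 (limma voom, adjusted p = 0.00336). On RPKM the shallow libraries alone gave 1.97 ± 0.45, which did not pass (limma, adjusted p = 0.198). A gene on the other strand, Gm37419, overlaps exons of Bcl6, and the library kit does not mark strand, so reads of the pair cannot be told apart. The same holds for Maf with Gm15655 and for Tox with Gm11802.

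The promoters of Bcl6 and Prdm1, the pair of mutually repressing genes, are shown because the data bear on both. RefSeq (GRCm38.p6, the assembly of mm10) lists 2 start sites for Bcl6, the second inside the gene, and 1 for Prdm1, also inside the annotated gene. The 250 bases before each start are printed 5′ to 3′ on the gene's strand, the minus strand in all 3, with capitals for matches to TTCNNNGAA, the core that STAT proteins and Bcl6 bind, TGANTCA, the AP-1 element that Batf with Jun partners binds, and the E-box CACCTG, all searched on both strands.
Bcl6 start 1, chr16:23988853-23989102: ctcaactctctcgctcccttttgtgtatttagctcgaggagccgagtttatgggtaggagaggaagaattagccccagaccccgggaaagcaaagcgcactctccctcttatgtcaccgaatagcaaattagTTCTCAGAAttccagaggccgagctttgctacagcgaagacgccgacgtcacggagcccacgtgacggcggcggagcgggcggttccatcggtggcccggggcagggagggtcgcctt
Bcl6 start 2, chr16:23981284-23981533: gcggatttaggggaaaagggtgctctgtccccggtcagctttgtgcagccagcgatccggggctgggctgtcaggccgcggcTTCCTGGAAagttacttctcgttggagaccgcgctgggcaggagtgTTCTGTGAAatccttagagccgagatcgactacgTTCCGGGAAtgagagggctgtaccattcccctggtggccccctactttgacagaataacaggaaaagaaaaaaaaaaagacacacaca
Prdm1 start, chr10:44458749-44458998: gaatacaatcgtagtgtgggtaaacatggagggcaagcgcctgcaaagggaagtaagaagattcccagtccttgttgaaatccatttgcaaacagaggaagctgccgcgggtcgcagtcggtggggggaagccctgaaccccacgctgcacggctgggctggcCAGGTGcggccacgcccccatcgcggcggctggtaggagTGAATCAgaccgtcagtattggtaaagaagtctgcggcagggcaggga
The first Bcl6 start has 1 TTCNNNGAA match, 118 bases upstream, and the second has 3, at 168, 122 and 88 bases upstream. Windows of 250 bases before to 50 bases after the start were searched in 17496 promoters of 14036 genes in the table, and 7.3% of them held this core. Prdm1 has a TGANTCA match 48 bases upstream, an element that 6.3% of promoters held, and a CACCTG match in reverse 87 bases upstream, as in 3502 of the 17496 promoters. Promoters were at hand for 7 of the 9 genes, 12 in all, and not for Maf and Tox. Ascl2 had a CACCTG match in reverse near the far end of its window and Tox2 had one at 1 of its 5 starts. The 3 other elements searched were CAGCTG (16.5% of promoters), GAAANNGAA, the interferon regulatory factor element (7.5%), and the octamer ATGCAAAT (1.6%), at which Pou2af1 acts. Only Tox2 held any of these, GAAANNGAA at 2 overlapping start windows, and the windows of Batf, Pou2af1 and Irf4 held none of the 6.

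Ascl2 (ENSMUSG00000009248.6, mm10 chr7:142966829-142969264, minus strand), a basic helix-loop-helix factor that acts early in the follicular helper programme, read 2.12, 0.646, 0 and 0 RPKM in WT1 to WT4. It read 19.1, 46.6 and 10.1 RPKM in RT1 to RT3. Ascl2 was low but detected in the deep wild types, had no read in the shallow ones and was present in all RT libraries. The deep libraries carry this difference: 676 reads in the library labelled RT1 stood against 64 in WT1 and 21 in WT2, 13.3 times the WT mean in RPM. In the shallow libraries RT had 10 reads and WT 0, which puts RT at least 3.42-fold higher with 3 reads as the limit over the WT pair. Zero reads allow up to 15.5 RPKM in WT3 and 15.2 in WT4, and the value of RT3 lies below both limits. Its log2 fold change was 3.97 ± 0.64 on RPKM (limma, adjusted p = 0.0756) and 4.01 ± 0.46 on reads (limma voom, adjusted p = 0.00127). Ascl2 passed the filters on low values only through the RT libraries, and its fitted fold change depends on the value added before the log, going from 2.26 to 6.22 over the settings tried.

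Maf (ENSMUSG00000055435.6, mm10 chr8:115682942-115707794, minus strand), a leucine zipper factor that drives IL-21 and IL-4 in helper cells, read 24.9, 15.5, 25.5 and 24.9 RPKM in WT1 to WT4 and 53.3, 52.8 and 71.8 in RT1 to RT3. In RPKM the WT values were close together apart from WT2, and no RT value came near them. In RPM Maf read 433.5, 249, 240 and 234 in WT1 to WT4 and 876, 481 and 653 in RT1 to RT3. There WT1, not WT2, differed from the other WT libraries, and RT2 lay nearest to it. The means were 22.7 ± 4.82 (SD, n = 4) and 59.3 ± 10.8 (SD, n = 3) RPKM, a ratio of 2.61. Its log2 fold change was 1.31 ± 0.23 on RPKM (limma, adjusted p = 0.088) and 1.39 ± 0.24 on reads (limma voom, adjusted p = 0.00693). Maf had the narrowest range of fold changes over the settings tried on RPKM, 1.18 to 1.43.

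Tox and Tox2 encode related HMG-box proteins, of which Tox2 is known to open chromatin at follicular helper genes together with Bcl6. Tox (ENSMUSG00000041272.11, mm10 chr4:6686353-6991557, minus strand) read 10.9, 8.18, 8.84 and 23.8 RPKM in WT1 to WT4 and 26.9, 42.2 and 54.0 in RT1 to RT3. WT4 came closest to the RT group, and RT1 lay only a little above it, although the 2 libraries belong to different sets. Tox2 (ENSMUSG00000074607.11, mm10 chr2:163203125-163324170, plus strand) read 8.09, 4.59, 19.8 and 4.84 RPKM in WT1 to WT4 and 36.0, 58.4 and 43.5 in RT1 to RT3. The highest WT value of Tox2, WT3, rested on 8 reads and stayed below every RT value. The log2 fold change of Tox was 1.55 ± 0.35 on RPKM (limma, adjusted p = 0.136) and 1.51 ± 0.21 on reads (limma voom, adjusted p = 0.00265). That of Tox2 was 2.28 ± 0.46 on RPKM (limma, adjusted p = 0.105) and 2.53 ± 0.29 on reads (limma voom, adjusted p = 0.00127). In the shallow libraries alone they were 1.63 ± 0.38 for Tox (limma voom, adjusted p = 0.00112) and 2.15 ± 0.56 for Tox2 (limma voom, adjusted p = 0.00399). On RPKM of these libraries neither passed, at 1.64 ± 0.55 for Tox (limma, adjusted p = 0.305) and 2.22 ± 0.72 for Tox2 (limma, adjusted p = 0.292).

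Batf (ENSMUSG00000034266.6, mm10 chr12:85686669-85709087, plus strand), an AP-1 factor that pairs with Jun proteins and Irf4, was the factor that passed in both kinds of fit. It read 33.8, 23.1, 61.6 and 68.9 RPKM in WT1 to WT4 and 105, 327 and 439 in RT1 to RT3. Every RT value was above every WT value, and the shallow libraries read higher than the deep ones within each genotype. The means were 46.8 ± 21.9 (SD, n = 4) and 290.4 ± 169.7 (SD, n = 3) RPKM, and the wide RT spread is the gap between RT1 and the 2 shallow libraries. Within a set the ratio in RPM was 3.62 for the deep and 5.69 for the shallow libraries, and the difference between the sets was 0.64 ± 0.42 log2 (limma interaction term, adjusted p = 0.763). Batf rose by 2.26 ± 0.24 log2 on RPKM (limma, adjusted p = 0.0351) and by 1.94 ± 0.23 on reads (limma voom, adjusted p = 0.00137). The call on RPKM was lost when any single library other than RT1 was left out, with adjusted p between 0.075 and 0.207 (limma), while the fold change stayed between 2.09 and 2.40.

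The sum of 5 markers of regulatory T cells, which also use Maf, Batf, Irf4 and Prdm1, was higher in the shallow RT libraries. Foxp3, Il2ra, Ctla4, Ikzf2 and Tnfrsf18 summed to 1046, 639, 805 and 916 RPM in WT1 to WT4 and to 1178, 2091 and 2629 RPM in RT1 to RT3. None of the 5 was at 0 in any library. They did not move together on reads (limma voom): Ctla4, also listed as a follicular helper product, rose (1.52 ± 0.25) and Il2ra fell (-1.86 ± 0.20). Foxp3 and Ikzf2 were not among the genes called. The part of regulatory T cells in the differences above was not tested. The CD4 T cell markers Cd4, Cd3e, Cd3d, Cd3g, Cd5, Cd28 and Lck summed to 3469 to 4382 RPM in WT and RT1 and to 7308 and 6889 RPM in RT2 and RT3, and none was at 0. Germinal centre B cells also express Bcl6, and 5 of their markers (S1pr2, Mybl1, Rgs13, Gcsam and Fas) summed to 78.2, 41.0, 38.4 and 65.5 RPM in WT1 to WT4 and to 147, 146 and 136 RPM in RT1 to RT3, higher in every RT library. Mybl1, Rgs13 and Gcsam were at 0 in WT2, WT3, WT4, RT2 and RT3, and none was at 0 in WT1 or RT1. Where these were at 0, the sum came from S1pr2 and Fas alone. Among the shallow libraries the higher RT sums therefore rested on S1pr2 and Fas, and which cells the reads of these genes came from was not tested. Summed markers of B cells in general, given below, were lower in RT within the shallow set, while RT1 exceeded both deep WT libraries. The part of germinal centre B cells in the Bcl6 values was not tested.

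Pou2af1 (ENSMUSG00000032053.8, mm10 chr9:51213708-51240080, plus strand) read high in RT and in the shallow wild-type libraries. It read 9.0, 4.23, 79.2 and 51.6 RPKM in WT1 to WT4 and 43.2, 89.0 and 67.7 in RT1 to RT3. The shallow WT libraries lay within the RT range in RPKM, with WT4 below RT2 and RT3 of its own set, while the deep WT libraries were far below RT1. In RPM, RT was 6.33 times WT among deep and 1.16 times WT among shallow libraries, and WT itself was 5.47 times higher in the shallow than in the deep set. RT over WT came to a log2 fold change of 1.21 ± 0.52 on RPKM (limma, adjusted p = 0.388) and 2.43 ± 0.47 on reads (limma voom, adjusted p = 0.0103), and it was 0.22 ± 0.38 in the shallow libraries alone (limma voom, adjusted p = 0.791). The difference between the sets, -2.34 ± 0.64 log2, did not pass (limma interaction term, adjusted p = 0.305), nor did it on reads, at -2.58 ± 0.98 (limma voom, adjusted p = 0.477).

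B cell markers, like Pou2af1, were higher in the shallow than in the deep WT libraries. Cd79a, Cd79b, Ms4a1, Pax5, Ebf1, Cd22, Blk, Fcrla and Spib summed to 279 and 195 RPM in WT1 and WT2, to 1266 and 1534 RPM in WT3 and WT4, and to 379.6, 157 and 227 RPM in RT1 to RT3. None of the 9 was at 0 in WT or RT1, 5 were at 0 in RT2 (Ms4a1, Ebf1, Blk, Fcrla and Spib) and 4 in RT3 (Pax5, Ebf1, Blk and Spib). Plasma cell markers other than Irf4 and Prdm1 (Sdc1, Jchain, Xbp1, Mzb1, Tnfrsf17 and Derl3) were likewise highest in WT3 and WT4, with 127 and 116 RPM in WT1 and WT2, 1563 and 1749 RPM in WT3 and WT4, and 468, 272 and 263 RPM in RT1 to RT3. Wild-type shallow libraries thus held more B and plasma cell RNA than any RT library. In RT2 Pou2af1 stood at 251 RPM, beside a B cell marker sum of 157 RPM with 5 of the 9 markers at 0. At this depth a marker at 0 allows a low level of it. The part of B lineage RNA in the Pou2af1 values of WT and of RT was not tested.

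**Figure D3:**
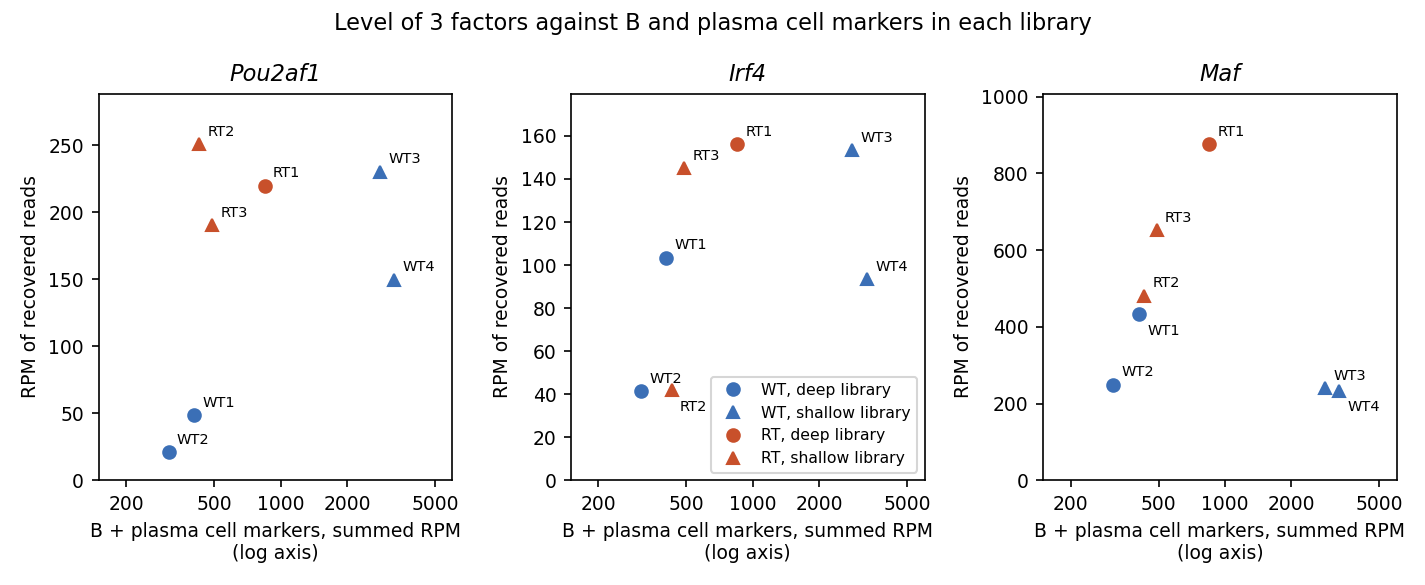
RPM of Pou2af1, Irf4 and Maf (vertical axes, linear) against the summed RPM of the 9 B cell and 6 plasma cell markers (horizontal axes, log scale), 1 point per library, circles for deep and triangles for shallow libraries, blue for WT and orange for RT. WT3 and WT4 lie far to the right in each panel. There Pou2af1 is at 230 and 150 RPM, against 220, 251 and 190 RPM in RT1 to RT3. Irf4 is at 153 and 93.5 RPM in WT3 and WT4, within the 41.4 to 156 RPM of the other libraries. Maf is at 240 and 234 RPM in WT3 and WT4, below all RT libraries.

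Irf4 (ENSMUSG00000021356.10, mm10 chr13:30749226-30766976, plus strand), the partner of Batf at composite elements and a factor of plasma cells as well, had overlapping groups. It read 10.01, 4.34, 27.4 and 16.8 RPKM in WT1 to WT4 and 16.0, 7.71 and 26.8 in RT1 to RT3. WT3 was the highest library and WT2 the lowest, and the value of RT2 rested on 4 reads. RT1 was above WT1 and WT2, whereas in the shallow libraries the WT mean was the higher. The log2 fold change was 0.14 ± 0.57 on RPKM (limma, adjusted p = 0.937; 95% interval -1.20 to 1.48) and 1.14 ± 0.45 on reads (limma voom, adjusted p = 0.117). It was 1.29 ± 0.41 in the deep libraries alone (limma voom, adjusted p = 0.115) and -0.52 ± 0.49 in the shallow ones (limma voom, adjusted p = 0.591). The B and plasma cell sums given for Pou2af1 stand beside these values too, and their part in them was not tested.

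Prdm1 (ENSMUSG00000038151.13, mm10 chr10:44437177-44528501, minus strand), the opponent of Bcl6, was not lower in RT. It read 4.71, 1.25, 1.51 and 4.42 RPKM in WT1 to WT4 and 6.49, 5.08 and 13.3 in RT1 to RT3. Each RT value was above each WT value in RPKM, but by little. RT2 with 3 reads stood next to WT4 with 3 reads and WT1 with 488. In RPM, RT2 lay below WT1, at 31.4 against 55.5. The means were 2.97 ± 1.85 (SD, n = 4) and 8.28 ± 4.37 (SD, n = 3) RPKM. The log2 fold change was 1.23 ± 0.56 on RPKM (limma, adjusted p = 0.409) and 1.41 ± 0.57 on reads (limma voom, adjusted p = 0.129), so the difference did not pass in either. It turned on the deep WT pair, 488 reads in WT1 against 140 in WT2: on reads it was 2.35 without WT1 (limma voom, adjusted p = 0.000394) and 0.42 ± 0.19 without WT2 (limma voom, adjusted p = 0.147). Irf4 likewise passed on reads only without WT1, at 1.62 (limma voom, adjusted p = 0.0165).

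The balance of Bcl6 against Prdm1 was taken within each library as the difference of their log2(RPKM + 1) values. It was 0.35, 1.37, 1.96 and 0.12 in WT1 to WT4 and 1.64, 2.04 and 1.31 in RT1 to RT3. Bcl6 was the higher of the pair in all 7 libraries, and the RT values fell within or just above the WT range. The means were 0.95 ± 0.87 (SD, n = 4) and 1.66 ± 0.36 (SD, n = 3), a difference of 0.71 (exact two-sided permutation test over 35 groupings, p = 0.286, with 0.0571 the smallest this design can give). With 5 in place of 1 added before the log the difference was 0.79, with that smallest p of 0.0571 in the same exact test. With 0.1 added it was 0.56 (same exact test, p = 0.514), so the p-value depended on the value added.

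**Figure D4:**
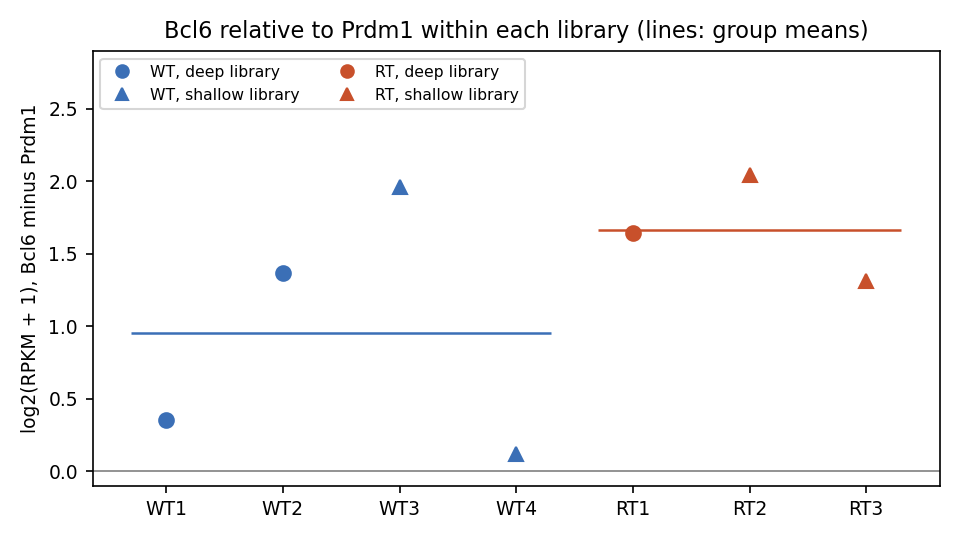
Difference of log2(RPKM + 1) between Bcl6 and Prdm1 (vertical axis) in each library (horizontal axis), circles for deep and triangles for shallow libraries, with lines at the group means of 0.95 for WT and 1.66 for RT. The RT points, 1.31 to 2.04, lie inside the span of the WT points, 0.12 to 1.96, except RT2.

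On reads, calls among genes listed as follicular helper products were all upward, and those among genes that Bcl6 is known to repress all downward. In that fit 10.2% of all genes were called higher and 8.69% lower (0.219% and 0.0521% on RPKM). Of 18 products 17 were tested, and 14 rose and 0 fell on reads (limma voom, median log2 fold change 1.52). On RPKM 3 rose (limma, median 1.38): Tigit, an inhibitory receptor, by 2.26 ± 0.27, Pdcd1, the gene of PD-1, by 2.77 ± 0.35, and Rgs16, a brake on G protein signalling, by 2.31 ± 0.31. On reads the smallest p-values were those of Rgs16 (2.71 ± 0.32), Cebpa (2.88 ± 0.38) and Pdcd1 (2.66 ± 0.38). Of 13 Bcl6-repressed genes other than Prdm1, 10 were tested on reads, and 7 fell and 0 rose (limma voom, median -1.50), led by Gpr183 (-2.44 ± 0.19), S1pr1 (-2.44 ± 0.22) and Ccr7 (-3.47 ± 0.33). These 3 encode a receptor for oxysterols, a receptor for lymphocyte egress and a chemokine receptor of the T cell zone. On RPKM, S1pr1 alone passed among the 13, at -2.17 ± 0.26 (limma, adjusted p = 0.0451), with a list median of -0.74. Before adjustment 2 of the 13 were higher and 5 lower at a p under 0.05 on RPKM. On reads 1 of the 10 tested was higher and 7 were lower. Of all genes, 7.0% were higher at that level on RPKM, with 13.0% under it in either direction, and 16.8% were higher on reads. Gpr183, S1pr1 and Ccr7 are also expressed by B cells, whose markers were lower in RT2 and RT3 than in WT3 and WT4, and that part was not tested. The median of all genes was -0.03 in both fits, and without the library labelled RT1 no gene of any list passed on reads.

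Partners and upstream regulators of Bcl6 were called in both directions, and the upstream list mixes inducers with restrainers. Of 29 partners and relatives of the factors, 22 were tested on reads, of which 2 rose, Fosl2 (1.14 ± 0.21) and Mafg (1.25 ± 0.35), and 2 fell, Tcf12 (-0.60 ± 0.15) and Mafk (-0.63 ± 0.16), with a median of 0.12 (limma voom), shares near those of all genes. Of 20 inducers and restrainers of Bcl6, 3 rose and 7 fell on reads (limma voom, median -0.16), against 10.2% and 8.69% of all genes. Those that rose were Stat4 (1.05 ± 0.17), Icos (1.43 ± 0.32) and Egr2 (1.03 ± 0.29). Among the falls the smallest p-values were those of Bach2 (-2.18 ± 0.20), Il2ra (-1.86 ± 0.20) and Foxo1 (-1.62 ± 0.19). Il2ra and Klf2, both among these falls, were also counted among the Bcl6-repressed genes that fell. Of 8 genes named with Blimp-1 in effector and regulatory T cells, 6 were tested on reads (limma voom, median 0.77). Of these, 2 rose, Ccr8 (2.44) and Lag3 (2.91), and 0 fell, against the same 10.2% and 8.69% of all genes. On RPKM none of the genes in these 3 lists passed (limma). Before adjustment 2 of 25 tested partners, 3 of 20 upstream genes and 2 of 6 Blimp-1 genes were higher at a p under 0.05. In the same lists 1, 3 and 0 were lower. Of all genes, 7.0% were higher at that level and 13.0% were under it in either direction.

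In RPKM, which is per length, Batf was the highest factor in 6 of the 7 libraries, and Pou2af1 was in WT3. A mean over a group pools deep and shallow libraries, 2 and 2 in WT and 1 and 2 in RT, so its order also reflects the sets: Pou2af1 stood at place 5 and 7 in WT1 and WT2 and at place 1 and 2 in WT3 and WT4. By mean RPKM in RT the order was Batf, Pou2af1, Maf, Tox2, Tox, Bcl6, Ascl2, Irf4 and Prdm1. Batf was apart from the next factor without overlap of their ranges, and each other pair of neighbours overlapped. By the same mean in WT it was Batf, Pou2af1, Maf, Irf4, Tox, Tox2, Bcl6, Prdm1 and Ascl2, and only Bcl6 and Prdm1 were neighbours without overlap. Ascl2 was the lowest factor in all 4 WT libraries and stood above Irf4 in 2 of the 3 RT libraries.

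The genes whose levels followed Bcl6 most closely were taken by Pearson r of log2(RPKM + 1) over the 7 libraries, after the mean of each library set was taken off, among 5819 genes. They were Cdh23 (r = 0.996), Pip4k2c (0.990), Cbx6 (0.987), Dtx3 (0.986) and Atpif1 (0.986). These values are a description: the 7 libraries share 2 genotypes, and any gene that differs evenly between them comes out high. Among the other 8 factors r with Bcl6 was 0.96 for Maf and Batf, 0.95 for Tox2, 0.89 for Ascl2, 0.80 for Tox, 0.72 for Prdm1, 0.68 for Pou2af1 and 0.26 for Irf4. Irf4 thus followed Bcl6 least, as its overlapping groups show.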

How the data were processed

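Messenger RNA of 7 CD4+ splenocyte samples was sequenced from TruSeq v2 libraries, per the labels' protocols. The deposited values are RPKM by the authors, on the build mm10 according to the submitters' processing notes, which with the labels name no aligner, counter or annotation. Whole reads were recovered by solving RPKM for gene length and library total. The annotated length was taken where it gave whole reads within 0.01, and otherwise the shortest length that gave them within 0.003. Of 13859 genes above 0, 12974 gave whole reads with 1 length, 809 with a length for each depth set, and 76 were left out. With annotated lengths, 78.9% to 83.9% of values were whole within 0.01 reads. The intervals, and the limit that 0 reads allow (3 reads), cover counting error only.

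The test on RPKM was limma 3.58.1 in R 4.3.3 on log2(RPKM + 1), with genotype and library set, a trended prior and a filter of 1 RPKM reached in 3 or more libraries. A fold change on this scale understates that of low genes. Recovered reads were fitted with limma voom (genes whose shallow libraries together held at least 10 reads); in the deep set alone, RT1 is taken to vary as WT does. In the shallow set alone, the spread is pooled almost wholly over all genes. P-values are two-sided with Benjamini-Hochberg adjustment. The balance used an exact permutation test (scipy 1.17.1). The fitting script was tested on simulated data. Gene positions are from GENCODE M21 and promoters from RefSeq.

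The 9 genes, the gene lists and the library set term were chosen with earlier results of these data known, and the same holds for the tests. In related lists, up to 3 genes past a threshold in each direction are named, smallest p first; predicted genes and receptor segments are not named. A few list and marker genes are not reported here and were left out of the counts and sums. WT3 and WT4 differed by little more than sampling noise (chi-square per degree of freedom 1.13 over 2330 genes, against 3.00 over 2149 genes for RT2 and RT3). They were kept as the separate samples of the labels, and fits with them averaged or summed were also run. The design text describes the samples as separate mice.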

Additional observations from a re-analysis of the deposited data

Results flagged for a closer look

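Among the 4 wild-type libraries, Maf in WT2 stood apart at 15.5 RPKM: its gap to the nearest WT value was 0.943 of the group's range, past the 95% critical value of Dixon's test for 4 samples. This was the only such case in 10 sets of WT values looked at, and chance flags about 1 in 20 groups. The flag pools RPKM of deep and shallow libraries. In RPM Maf read 433.5, 249, 240 and 234 in WT1 to WT4, and WT2 did not stand apart.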

How the results depend on the processing

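The call of 1 factor on RPKM was 0 with genotype as the only term, with sex as a further term, at a pseudocount of 0.1, without a filter on low values, in the deep libraries alone and with WT3 and WT4 averaged, and it was 2 after quantile normalization; leaving out 1 library gave 0 to 2. It was 7 on reads, also with upper-quartile scaling. Genes called higher, 21 on RPKM, numbered 4, 0, 4, 0, 2, 0 and 25 in those settings in that order, 11 in the shallow libraries, 593 on reads and 538 with upper-quartile scaling, and 0 to 168 without 1 library; genes called lower, 5 on RPKM, numbered 1, 0, 0, 0, 0, 0 and 16, then 75, 506 and 449, and 0 to 278. On reads the 7 factors called were 5 in the shallow libraries and 0 to 9 without 1 library. The genes called higher on reads, 593, numbered 273 with the deep and 218 with the shallow set alone, and 0 to 829 without 1 library. The 506 called lower numbered 134 and 317, and 0 to 687. The number of factors called lower was 0 in every fit. Irf4 reversed to -0.53 in the shallow libraries, -0.14 without WT2, -0.53 without RT1 and -0.11 without RT3 on RPKM, with 0.73 the highest without 1 library, and to -0.52 in the shallow libraries and -0.51 without RT1 on reads, with 1.62 the highest without 1 library. The other 8 factors kept a positive fold change in all settings run. The cause of these changes was not tested. Summing WT3 and WT4 left 422 genes higher and 351 lower on reads.

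With the replicate number as a replicate block beside the library set, 0 factors, 0 genes higher and 0 lower passed on RPKM; on reads 7 factors passed, with 620 genes higher and 546 lower. The numbers share no stated origin, and deviations of same-numbered libraries correlated at 0.43, -0.18 and 0.18, so they were not treated as pairs.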
